A study of Mus musculus with 9 samples.

Results

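Extracellular matrix genes and markers of hepatic stellate cells were followed in the livers of mice with altered Snd1. The 42 genes were chosen by symbol and role and comprise collagens, adhesive glycoproteins, basement membrane proteins, proteoglycans, matrix enzymes and inhibitors, the ligand Tgfb1 and stellate cell markers. All 42 were found among the 19944 genes of the table, and all 42 had a mean of at least 10 over the 9 libraries, the minimum set for a test, as did 15238 genes in all. RNA of whole liver from FVB mice, males of 60 days, was sequenced from 3 KI animals, in which the Tudor domain of SND1 is mutated, 3 KO animals, which lack SND1, and 3 WT animals. The Tudor domain is the module through which SND1, otherwise built of nuclease-like repeats, recognizes methylated arginine on other proteins. The sources used here do not name the substitution in KI, the way the KO allele was made, or whether the animals of a genotype were littermates, so every p given here rests on the spread among these 9 animals' libraries. Values are normalized counts, that is, reads per gene divided by a size factor for the library.

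In liver, matrix is made by several cell types. Hepatic stellate cells, the pericytes of the sinusoids, store vitamin A esters and are the main source of fibrillar collagen when they become myofibroblast-like in injured liver. Hepatocytes secrete plasma fibronectin and type XVIII collagen, and sinusoidal endothelium adds to the thin basement membrane matrix of the space of Disse. Matrix metalloproteinases cut these proteins, and tissue inhibitors of metalloproteinases (TIMPs) block them.

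The libraries held 59678412 reads (KI_1) to 66384374 reads (KI_2). Snd1 (chr6:28475139-28935162, forward strand, GRCm38) had 5373, 7941 and 5595 normalized counts in KI, 227, 414 and 359 in KO and 6951, 8446 and 6512 in WT. Transcripts typical of exocrine pancreas marked 3 libraries: a list of 25 pancreas genes, led by the amylase gene Amy2a5, summed to 366160 normalized counts in KI_1, 4680764 in KI_3 and 835545 in WT_3, and to between 1066 and 3194 in each of the other 6. Results are therefore also given without these 3 libraries, which leaves 1 KI, 3 KO and 2 WT libraries, with the lone KI library assumed to vary like the others. Although the label for cell type reads hepatocyte, markers of stellate cells (23 of 23), endothelium (20 of 20) and Kupffer cells (12 of 12) passed the level filter beside the 10 hepatocyte genes. In such bulk tissue, fewer cells of a type and less RNA per cell cannot be told apart.

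Per kilobase of merged exons, the most abundant of the 42 transcripts was fibronectin (Fn1, mean over all libraries 7781 normalized counts per kb), followed by type XVIII collagen (Col18a1, 5414), Ecm1 (1841), decorin (Dcn, 1540), Sparc (1320) and biglycan (Bgn, 831). Fibrillar collagens were far lower on this scale: Col3a1 had 134, Col1a2 43.9 and Col1a1 25.3 normalized counts per kb. Lrat, the gene of the stellate cell enzyme that esterifies retinol, stood at 286 and the myofibroblast actin gene Acta2 at 23.9. The lowest was the collagen cross-linking enzyme gene Lox, at 2.36. The 42 genes together took 0.191%, 0.214% and 0.179% of reads in KI, 0.324%, 0.543% and 0.419% in KO and 0.237%, 0.267% and 0.213% in WT, so every KO library lay above every KI and WT library. Fn1 and Col18a1 carried most of this. Without those 2 genes, the summed level was 60727, 35821 and 56916 normalized counts in KI, 44216, 45357 and 58435 in KO and 47784, 41379 and 41660 in WT, and the groups overlapped.

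**Figure D1:**
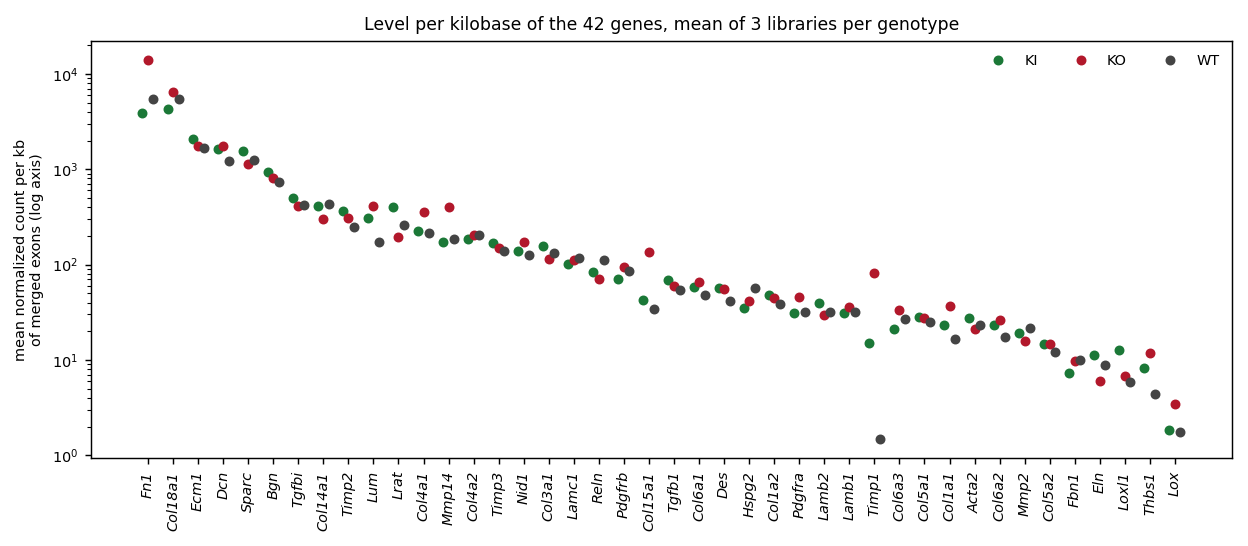
Mean level of each of the 42 genes per genotype (KI, KO, WT; 3 libraries each), in normalized counts per kilobase of merged exons on a log axis, ordered by the mean over all libraries. Fn1 and Col18a1 stand at the top, Lox at the bottom, and Timp1 and Col15a1 show the widest gaps between KO and WT.

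In livers without SND1 a few matrix genes were higher, and most of the list did not pass the test. In KO against WT, 5 of the 42 genes (11.9%) rose and 0 fell: the membrane-bound collagenase gene Mmp14, the protease inhibitor gene Timp1, the type XV collagen gene Col15a1, the proteoglycan gene Lum and Fn1. The call required an adjusted p under 0.05 in limma, two-sided, with Benjamini-Hochberg adjustment over all 15238 genes. Of all genes tested, 8.83% were called in this comparison, 4.63% as higher and 4.2% as lower. The median log2 fold change of the 42 genes was 0.18, against 0.00 for all genes, with 29 positive and 13 negative. In 10 of the genes every KO library lay above every WT library and in 3 every KO library lay below, where 15% and 14.2% of all genes did so.

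Without the 3 libraries with pancreatic transcripts, limma called 0 of the 42 genes in KO against WT and 30 of all 15238 genes (0.197%). The log2 fold changes of the 5 genes were then 1.10 for Mmp14, 5.34 for Timp1, 2.43 for Col15a1, 1.27 for Lum and 1.22 for Fn1, all in the same direction as with all libraries. With the level of pancreatic transcripts as a covariate, 5 of the 42 were called (4.96% of all genes), Thbs1 in place of Fn1. None of the 3 KO libraries stood out in these transcripts.

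**Figure D2:**
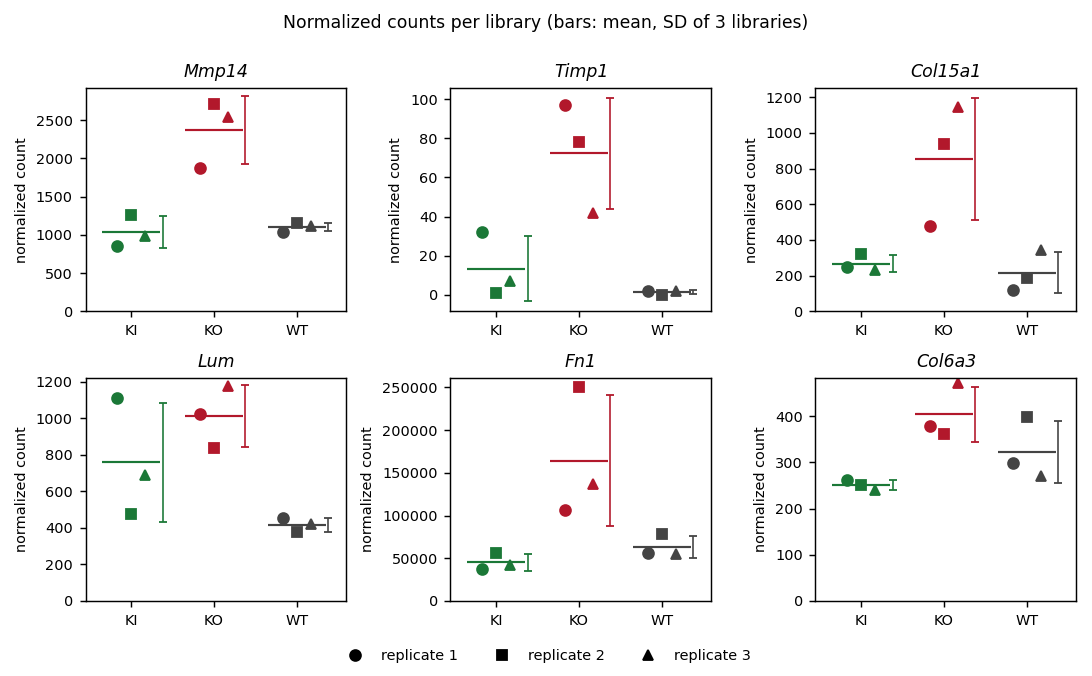
Normalized count of the 6 genes called in any comparison, in each library of KI, KO and WT (circle, replicate 1; square, replicate 2; triangle, replicate 3; horizontal line, mean; vertical bar, SD over 3 libraries). KO libraries lie above all WT libraries for the first 5 genes, and for Col6a3 the KI libraries lie below all others.

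Among the matrix enzymes and inhibitors, 2 of 7 rose in KO. Mmp14 (chr14:54431612-54445364, forward strand, GRCm38) encodes a membrane-anchored metalloproteinase that cleaves fibrillar collagen and activates the gelatinase proMMP2. It had 1869, 2714 and 2544 normalized counts in KO, against 1043, 1154 and 1113 in WT. The groups did not overlap, and the means were 2375 ± 447 in KO and 1103 ± 56.5 in WT (SD, n = 3 each). The log2 fold change was 1.09 ± 0.17 (SE; limma adjusted p = 0.00531), and leaving out any single KO or WT library kept the call. Mmp2 itself, the target of that activation, had 55.8, 45.6 and 59.7 normalized counts in KO and 68.1, 80.0 and 70.1 in WT, a log2 fold change of -0.44 ± 0.27 that did not pass (limma adjusted p = 0.362).

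Timp1 (chrX:20870166-20874735, forward strand, GRCm38) encodes a secreted inhibitor of metalloproteinases that is induced by inflammatory cytokines. It had 97.4, 78.0 and 41.6 normalized counts in KO (96, 77 and 46 reads), and was nearly undetected in WT, with 2, 0 and 2 reads. All KO libraries lay above all WT libraries. The log2 fold change on the scale of the normalized count plus 1 was 5.07 ± 0.99 (SE; limma adjusted p = 0.0130), but with so few WT reads its size followed the added constant, at 5.57 with 0.5 and 2.80 with 10. Mean normalized counts of Timp1 were 13.3 in KI, 72.3 in KO and 1.31 in WT, so that it passed the level filter through KO and had to differ to be tested at all, which bears on its place among the 5 calls. Without KO_2 it did not pass (limma adjusted p = 0.0619). Its relatives Timp2 and Timp3 had log2 fold changes of 0.30 ± 0.26 and 0.08 ± 0.27, and neither passed.

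The promoters of these genes, from 250 bases before to 50 after the RefSeq start (GRCm38.p6), are shown because Mmp14 and Timp1 had the smallest p of the list. Capitals mark matches, on either strand, to 7 short motifs chosen after the values were seen: TGANTCA for AP-1, TTCNNNGAA for STAT, TTGCNNAA for C/EBP, CAGGAAG for ETS, TATAAA for the core box of that name, CCAAT for its own box and GGGCGG for the GC box. The Mmp14 window is chr14:54431348-54431647 and the Timp1 window chrX:20869916-20870215, both on the forward strand.
Mmp14 promoter: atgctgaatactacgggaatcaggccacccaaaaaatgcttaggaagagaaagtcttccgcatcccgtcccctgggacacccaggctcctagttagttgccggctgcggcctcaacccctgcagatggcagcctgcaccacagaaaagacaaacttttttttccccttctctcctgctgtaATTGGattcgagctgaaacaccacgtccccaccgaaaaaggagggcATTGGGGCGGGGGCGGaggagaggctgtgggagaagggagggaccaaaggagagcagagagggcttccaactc
Timp1 promoter: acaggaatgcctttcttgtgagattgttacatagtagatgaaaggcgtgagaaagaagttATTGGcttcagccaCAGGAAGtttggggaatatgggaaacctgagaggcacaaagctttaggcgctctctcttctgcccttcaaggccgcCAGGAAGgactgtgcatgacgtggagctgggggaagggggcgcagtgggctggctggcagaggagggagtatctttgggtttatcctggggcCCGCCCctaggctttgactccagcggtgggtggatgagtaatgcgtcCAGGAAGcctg
The Mmp14 window held 2 CCAAT matches and 2 GC boxes, of which 1 of each overlap. The Timp1 window held 3 copies of CAGGAAG, 1 CCAAT match and 1 GC box. Of 32851 RefSeq promoter windows of this length, 13.3% held CAGGAAG, 37.4% CCAAT and 35.7% the GC box. The letters for AP-1, STAT, C/EBP and the core box, in 7.81%, 8.3%, 10.8% and 13.6% of windows, were in neither the Mmp14 nor the Timp1 window. A window was given for 29 of the 42 genes, and of these 21 held a GC box (72.4%), 7 CAGGAAG (24.1%) and 1 the STAT letters (3.45%). CCAAT was in 34.5% of the 29 genes, the C/EBP letters in 10.3%, and the AP-1 letters and the core box in 6.9% each. These shares count a gene if any of its windows matched, while those of the 32851 are per window. A match is a string of letters and not a measured binding site.

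Fibronectin, the adhesive glycoprotein that links collagen to integrins, was the most abundant of the 5 genes that rose. Fn1 (chr1:71585520-71653200, reverse strand) had 106197, 250666 and 136458 normalized counts in KO, against 55663, 78430 and 55092 in WT. The groups did not overlap, but KO_2 held far more than the other 2 KO libraries. The log2 fold change was 1.31 ± 0.32 (SE; limma adjusted p = 0.0327). The call was lost without KO_2, KO_3, WT_1, WT_2 or WT_3, one at a time, with log2 fold changes of 0.95 to 1.47 and limma adjusted p of 0.0555 to 0.122. It was also lost with only the KO and WT libraries in the fit (limma adjusted p = 0.0731) and with the level of pancreatic transcripts as a covariate (limma adjusted p = 0.0897). Thrombospondin 1 (Thbs1), which activates latent TGF-beta, had 51.7, 100 and 62.4 normalized counts in KO and 23.0, 9.63 and 48.1 in WT without overlap, at a log2 fold change of 1.59 ± 0.59 that did not pass (limma adjusted p = 0.128). The other 5 genes of the glycoprotein and elastic fibre group (Sparc, Eln, Fbn1, Tgfbi and Ecm1) had log2 fold changes between -0.50 and 0.10, and none passed.

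Among the collagen genes, 1 rose in KO and 0 fell. Col15a1 (chr4:47208161-47313167, forward strand), a multiplexin that bridges basement membrane and interstitial collagen, had 478, 940 and 1146 normalized counts in KO, against 119, 185 and 343 in WT. No KO value reached down to the WT range, although both groups were spread widely. The log2 fold change was 2.02 ± 0.40 (SE; limma adjusted p = 0.0135), and it did not pass without KO_2, WT_1 or WT_2 (limma adjusted p of 0.0506 to 0.0628). Col18a1, the other multiplexin and the precursor of endostatin, had 57151, 44833 and 34815 in KO and 40375, 42095 and 33102 in WT, with overlap. The 5 fibrillar collagen genes had log2 fold changes from -0.23 to 1.16 and 0 calls. Col1a1, the main chain of type I collagen, came nearest, with 218, 209 and 290 normalized counts in KO, against 76.7, 140 and 108 in WT, at a log2 difference of 1.16 ± 0.36 (SE; limma adjusted p = 0.0727). Col1a1 passed with DESeq2 (adjusted p = 0.0182) and with only the KO and WT libraries in the fit (limma adjusted p = 0.0459). The 3 type VI collagen chains that form beaded filaments had log2 fold changes of 0.47 for Col6a1, 0.54 for Col6a2 and 0.33 for Col6a3, and Col14a1, a fibril-associated collagen, had -0.54 ± 0.22, none of them passing.

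Genes with a shared role, most of them chains of the same collagen, were also set against each other within each library, per kilobase of exon. For 7 pairs, chosen after the values were seen and not tested, the ratios are descriptions. Type IV collagen, the network former of basement membranes, contains both Col4a1 and Col4a2 chains, which are transcribed in opposite directions from a common promoter region. The Col4a1 to Col4a2 ratio was 1.49, 1.03 and 1.15 in KI, 1.22, 2.03 and 1.85 in KO and 1.14, 1.05 and 0.954 in WT, so that all KO libraries lay above all WT libraries. Col4a1 had 1789, 3146 and 2963 normalized counts in KO and 1623, 1760 and 1387 in WT, a log2 fold change of 0.69 ± 0.22 that did not pass (limma adjusted p = 0.0810), although it did with DESeq2 (adjusted p = 0.0193) and without KO_1 (limma adjusted p = 0.00475). Col4a2 had 1295, 1377 and 1422 in KO and 1261, 1484 and 1290 in WT, a log2 fold change of 0.02 ± 0.12. The ratio of Col1a1 to Col1a2, the chains of type I collagen, was 0.575, 0.374 and 0.457 in KI, 0.804, 0.705 and 0.910 in KO and 0.270, 0.590 and 0.438 in WT. Again no KO value overlapped WT. The ratios of Col5a1 to Col5a2, Col6a1 to Col6a2 and Col6a3 to Col6a1 overlapped between KO and WT. Those of Timp1 to Timp2 and Mmp14 to Mmp2 were higher in KO without overlap. Both hold a gene already called as higher in KO, so they add no separate result.

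The windows of the type IV pair, chr8:11312777-11313076 on the reverse strand for Col4a1 and chr8:11312555-11312854 on the forward strand for Col4a2, are shown because the 2 genes start beside each other and share part of both windows. Capitals mark the 78 bases that both windows cover, written on opposite strands.
Col4a1 promoter: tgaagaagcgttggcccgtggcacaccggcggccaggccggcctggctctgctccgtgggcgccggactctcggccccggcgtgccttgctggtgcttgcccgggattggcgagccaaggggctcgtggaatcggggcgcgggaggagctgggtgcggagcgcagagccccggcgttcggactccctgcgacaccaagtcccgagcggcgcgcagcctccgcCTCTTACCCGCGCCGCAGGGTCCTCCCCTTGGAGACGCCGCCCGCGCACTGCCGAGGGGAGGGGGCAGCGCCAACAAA
Col4a2 promoter: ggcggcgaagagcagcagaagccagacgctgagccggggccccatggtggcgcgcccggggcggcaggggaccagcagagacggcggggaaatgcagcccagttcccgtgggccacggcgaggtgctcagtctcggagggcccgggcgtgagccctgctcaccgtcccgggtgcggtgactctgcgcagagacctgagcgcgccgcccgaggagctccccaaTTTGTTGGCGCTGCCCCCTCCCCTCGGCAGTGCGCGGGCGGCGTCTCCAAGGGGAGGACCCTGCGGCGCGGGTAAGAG
Exons of the 2 genes overlap on opposite strands, as do exons of Fn1 with Apol7d (mean 6.0) and of Timp3 with Syn3 (mean 21.5), and the strand setting of the counting is not given in the sources used here.

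Of the 3 small leucine-rich proteoglycans, which bind collagen fibrils and set their spacing, lumican rose in KO. Lum (chr10:97565128-97572703, forward strand) had 1024, 837 and 1177 normalized counts in KO, against 456, 379 and 420 in WT, without overlap. The log2 fold change was 1.27 ± 0.26 (SE; limma adjusted p = 0.0175), and it did not pass without KO_3, WT_1, WT_2 or WT_3 (limma adjusted p of 0.0553 to 0.0649). Dcn and Bgn had log2 fold changes of 0.48 ± 0.27 and 0.14 ± 0.23 and did not pass. The 5 laminin chains and linkers of the basement membrane (Lamb1, Lamb2, Lamc1, Nid1 and Hspg2) lay between -0.45 and 0.41 with 0 calls, and the cytokine gene Tgfb1 itself was at 0.14 ± 0.32.

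None of the 6 stellate and mesenchymal cell markers was called in KO against WT, and their log2 fold changes ran from -0.62 to 0.50. Acta2, the actin of activated stellate cells, had 16.2, 41.5 and 81.4 normalized counts in KO and 52.8, 45.3 and 54.1 in WT. KO thus spanned both sides of the WT range. Lrat, which esterifies retinol for storage, had 976, 625 and 1527 in KO and 1575, 1025 and 1558 in WT, and Des, an intermediate filament of stellate cells, had 163, 100 and 357 in KO and 215, 128 and 129 in WT. Reln, the secreted glycoprotein reelin, had 2065, 1628 and 1346 in KO and 2196, 3670 and 2042 in WT, at -0.62 ± 0.22 (SE; limma adjusted p = 0.114). The receptor genes for platelet-derived growth factor had log2 fold changes of 0.50 ± 0.26 for Pdgfra and 0.15 ± 0.16 for Pdgfrb, not passing. In a list of 23 stellate cell markers, of which 19 are not among the 42 genes, 2 rose in KO and 0 fell. The list as a whole did not shift, with a median log2 fold change of 0.004, 12 positive and 11 negative. The share called was 8.7%, near the 8.83% of all genes. The metalloreductase gene Steap4 had 15141, 56252 and 55273 normalized counts in KO and 5003, 5689 and 7923 in WT. The secreted glycoprotein gene Adamtsl2 had 660, 688 and 734 in KO and 355, 303 and 214 in WT. Without the 3 libraries with pancreatic transcripts 0 of the 23 were called. With the pancreas covariate 2 were called, Steap4 and Sod3, and Adamtsl2 was not.

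Acute phase transcripts moved with the KO group, while neutrophil and Kupffer cell markers did so only in part. The part of inflammation in the matrix results was not tested. All 13 of a list of acute phase genes, led by the fibrinogen gene Fga, rose in KO, with a mean log2 deviation from the WT mean of 4.07, 5.67 and 5.67 in the KO libraries and -0.14 to 0.08 in the WT libraries. Of 6 neutrophil markers tested, led by S100a9, 1 rose in KO, and their mean deviation was 0.30, 2.92 and 3.70 in KO_1, KO_2 and KO_3. In the WT libraries this deviation ran from -1.12 to 0.64, a range that held KO_1. Kupffer cell markers, led by Clec4f, had mean deviations of 0.11, -0.20 and 1.03, and 2 of 12 rose. Their WT libraries ran from -0.56 to 0.30, a range that held KO_1 and KO_2. The shares called were 100% of the acute phase genes and 16.7% of both the neutrophil and the Kupffer cell markers, beside 8.83% of all genes. Leaving out the 3 libraries with pancreatic transcripts left 4 acute phase genes, 0 neutrophil markers and 0 Kupffer cell markers called. Endothelial markers, led by Clec4g, had -0.30, -0.34 and 0.24, with 0 of 20 called. Hepatocyte genes had 0.19, -0.13 and -0.77, with 0 of 10 called, and -0.29 to 0.26 in the WT libraries. Stellate cell markers outside the 42 genes had 0.10, 0.01 and 0.52, and portal fibroblast markers -0.20, -0.06 and 0.60. The 42 matrix genes had mean deviations of 0.23, 0.38 and 0.59 in the same 3 libraries, and KO_3 held the highest KO value for 24 of them (57.1%, against 32.3% of all genes).

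With the mutated Tudor domain, none of the 42 genes passed against WT. In KI against WT limma called 0 of 42, where 0.0263% of all genes were called, 0.00656% as higher and 0.0197% as lower. Unadjusted limma p was under 0.05 for 2 of the 42 and for 1769 of all 15238 genes. On the recovered reads edgeR and DESeq2 also called 0 of the 42. The median log2 fold change was 0.22, against 0.00 for all genes. In 1 gene (Lum) every KI library lay above every WT library and in 3 (Hspg2, Col6a3 and Fbn1) every KI library lay below, where 9.47% and 10.2% of all genes did so. This comparison shares its WT libraries with that of KO against WT, so the 2 sets of fold changes are not independent.

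The smallest p belonged to Hspg2, which encodes the basement membrane proteoglycan perlecan. It had 495, 456 and 556 normalized counts in KI and 669, 1130 and 667 in WT, at a log2 difference of -0.67 ± 0.21 (SE; limma adjusted p = 0.253), with WT_2 far above the other WT libraries. Lum followed, with 1113, 476 and 689 normalized counts in KI and 456, 379 and 420 in WT, at 0.78 ± 0.26 (SE; limma adjusted p = 0.284). The KI values did not overlap WT but differed widely among themselves. The next 8 by p were Timp2, Timp1, Col6a3, the cross-linking enzyme gene Loxl1, Pdgfrb, Col18a1, Reln and Ecm1, with limma adjusted p of 0.478 to 0.563. Timp1 had 30, 1 and 6 reads in KI and 2, 0 and 2 in WT.

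For the genes that rose in KO, the 95% interval of the KI against WT log2 fold change was -0.49 to 0.28 for Mmp14, -1.19 to 0.23 for Fn1, -0.46 to 1.31 for Col15a1, 0.19 to 1.37 for Lum and -0.25 to 4.13 for Timp1. The fibrillar collagens had KI log2 fold changes of 0.08 to 0.41 and the stellate markers -0.38 to 0.59. Their medians of 0.25 and 0.03 turned to -0.36 and -0.46 when the 3 libraries with pancreatic transcripts were left out.

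**Figure D3:**
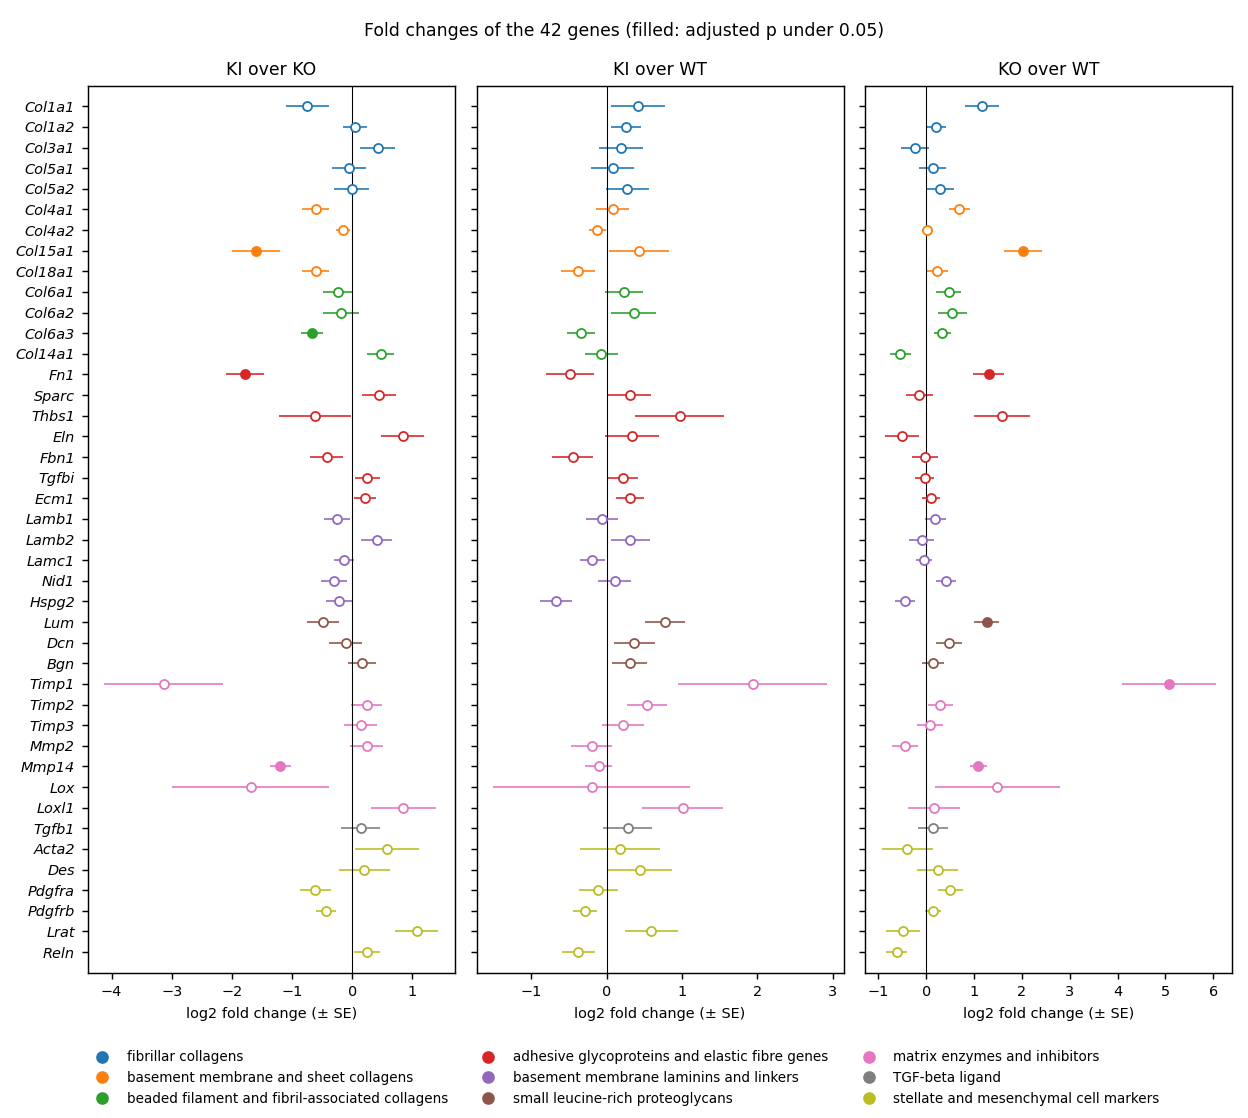
Log2 fold change with its SE (limma, 3 libraries per group) of each of the 42 genes in KI over KO, KI over WT and KO over WT, colored by role, with filled points where the adjusted p was under 0.05. KO over WT has 5 filled points to the right, KI over WT has none, and KI over KO has 4 to the left.

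Set directly against each other, KI livers had lower levels than KO livers of 4 of the 42 genes, and 0 were higher. Of all genes, 8.45% were called in KI against KO, 3.6% as higher and 4.85% as lower. The median of the 42 log2 fold changes was -0.12, against 0.01 for all genes. Groups did not overlap for 1 gene that was higher in KI (Eln, the elastin gene) and 6 that were lower, where 12.3% and 14.1% of all genes did so. This comparison shares the KO libraries with that of KO against WT.

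Mmp14 had 853, 1265 and 991 normalized counts in KI, against the KO values above, at a log2 difference of -1.20 ± 0.17 (SE; limma adjusted p = 0.00364). Fn1 had 37260, 56147 and 42325 in KI, at -1.79 ± 0.32 (SE; limma adjusted p = 0.00968), and did not pass without KI_1 (limma adjusted p = 0.0511). Col15a1 had 246, 321 and 233 in KI, at -1.60 ± 0.40 (SE; limma adjusted p = 0.0368). For all 3 genes every KI library lay below every KO library. The Col15a1 call was lost without any one of KO_2, KO_3 and the 3 KI libraries (limma adjusted p of 0.0515 to 0.138). Col6a3 (chr1:90765923-90843971, reverse strand), the long chain of type VI collagen from which endotrophin is cut, had 261, 251 and 241 in KI, against 378, 361 and 471 in KO and 298, 397 and 270 in WT. KI lay below both other groups, at -0.67 ± 0.18 against KO (SE; limma adjusted p = 0.0481). This last call was close to the threshold and passed in 5 of 18 other settings. It was lost without any one of KO_2, KO_3 and the 3 KI libraries, with edgeR (adjusted p = 0.0518), and in limma with a constant of 10 (adjusted p = 0.0506), no filter (adjusted p = 0.0575) or only the KI and KO libraries (adjusted p = 0.0768).

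Next by p, and not passing, were Timp1 (-3.13 ± 0.99, limma adjusted p = 0.0789), Lrat, Col4a1, Col18a1, Pdgfrb and Pdgfra. Lrat had 2896, 1293 and 2300 normalized counts in KI and 976, 625 and 1527 in KO, at 1.07 ± 0.35 (SE; limma adjusted p = 0.0914). It passed with DESeq2 (adjusted p = 0.0233), while without the 3 libraries with pancreatic transcripts its log2 fold change was 0.40 (limma adjusted p = 0.786). The remaining genes had limma adjusted p of 0.177 or more. Leaving out the 3 libraries with pancreatic transcripts left 1 KI library. The log2 fold changes against KO were then -0.89 for Mmp14, -1.45 for Fn1, -1.32 for Col15a1 and -0.67 for Col6a3. With the level of pancreatic transcripts as a covariate, limma called 0 of the 42 (0.925% of all genes).

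The KI libraries differed from each other in the matrix genes. KI_2 held the lowest of the 3 KI values for 37 of the 42 genes (88.1%), against 33.5% of all genes tested. Relative to the WT mean, the 42 genes deviated by a mean of 0.40 (log2) in KI_1, -0.31 in KI_2 and 0.44 in KI_3, against -0.08 to 0.08 in the WT libraries. The fibrillar collagens gave 0.54, -0.39 and 0.58, and the proteoglycans 0.97, -0.11 and 0.58. The basement membrane and sheet collagens did not split this way, at -0.06, 0.06 and 0.00, and KI_2 held the highest KI value for 4 genes, Fn1, Mmp14, Col15a1 and Col18a1. For Col3a1 the normalized counts were 1903, 862 and 1888, and for Dcn 12194, 5995 and 10619. KI_1 and KI_3 are also the KI libraries with pancreatic transcripts, and several lists of markers of other cell types split the same way. Stellate cell markers that are not among the 42 genes had mean deviations of 0.33, -0.23 and 0.61, endothelial markers 0.40, -0.30 and 0.38, Kupffer cell markers 0.40, -0.36 and 0.48, portal fibroblast markers, led by Gsn, 0.74, -0.22 and 1.26, and mesothelial markers, led by Upk3b, 1.79, -0.39 and 1.25. Neutrophil markers did not follow, at -0.79, 0.23 and 1.25. Hepatocyte genes, led by Alb, ran the other way, at -0.28, 0.08 and -0.26. In WT_3, the WT library with pancreatic transcripts, the 42 genes had a mean deviation of -0.002. Its endothelial markers had -0.06, portal fibroblast markers -0.26 and mesothelial markers -0.99. Its Kupffer cell markers had 0.26, stellate cell markers outside the 42 genes 0.11, neutrophil markers 0.64 and hepatocyte genes -0.29. The part of pancreatic or other tissue in the KI values was not tested. Without the 3 libraries with pancreatic transcripts, the median log2 fold change of the 42 genes in KI against WT turned to -0.30.

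**Figure D4:**
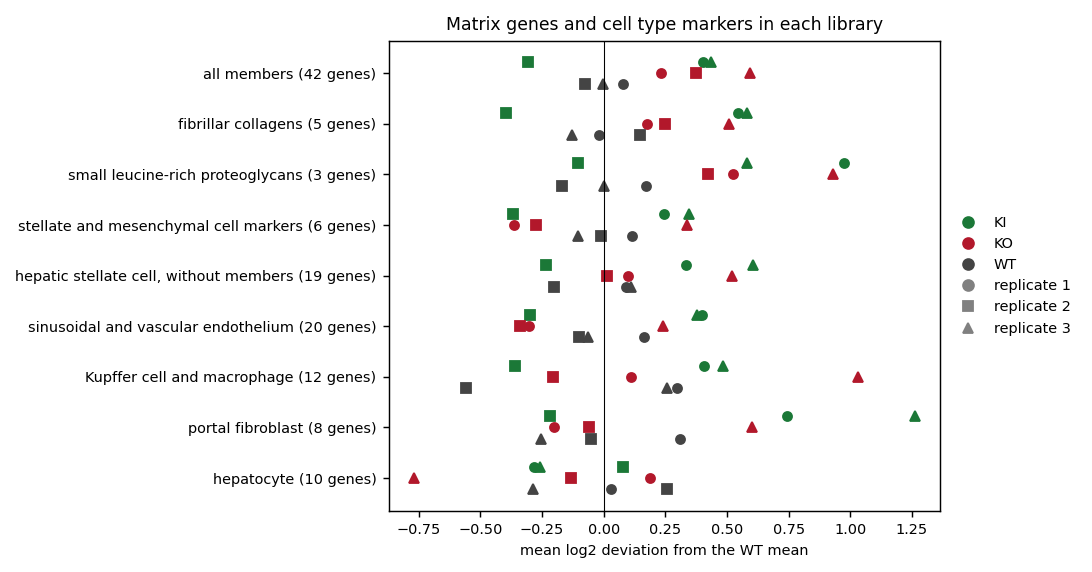
Mean log2 deviation from the WT mean, per library of KI, KO and WT, for the 42 genes, 3 of their groups and 5 lists of cell type markers (circle, replicate 1; square, replicate 2; triangle, replicate 3; number of genes tested in brackets). KI_2 lies below KI_1 and KI_3 in every row except hepatocyte genes, where it lies above them.

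Other genes of matrix biology were counted from 6 lists, of which 143 genes were tested. In KO against WT 13 rose and 3 fell, 11.2% of the 143 against 8.83% of all genes, and 127 did not pass. The integrins and other matrix receptors, through which cells grip fibronectin and collagen, had 4 of 22 called, all higher. Itga5, the partner of integrin beta 1 in the fibronectin receptor, had 1977, 2085 and 1656 normalized counts in KO and 841, 916 and 676 in WT, a log2 difference of 1.24 ± 0.15 (SE; limma adjusted p = 0.00134). Itga2, part of a collagen receptor, had 138, 877 and 1018 in KO and 11.5, 14.5 and 14.0 in WT, a log2 difference of 5.13 ± 0.63 (SE; limma adjusted p = 0.00163). KO_1 was far below the other KO libraries for this gene, yet far above WT. The heparan sulfate proteoglycan gene Sdc2 (1.03 ± 0.15) and the vitronectin receptor gene Itgb3 (1.40 ± 0.37) also rose, with limma adjusted p of 0.00419 and 0.0419.

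Collagen folding and processing genes had 4 of 26 called, all higher in KO: the cross-linking transglutaminase gene Tgm2 (log2 fold change 1.06 ± 0.16, limma adjusted p = 0.00435), the prolyl hydroxylase genes P3h1 (1.04 ± 0.22, 0.0165) and P4ha2 (0.87 ± 0.20, 0.0249) and the lysyl hydroxylase gene Plod3 (0.49 ± 0.12, 0.0385). In TGF-beta signalling 2 of 22 were called (9.09%, near the 8.83% of all genes). The pathway inhibitor gene Skil rose and the transducer gene Smad2 fell. Skil had 1048, 1669 and 1532 normalized counts in KO and 665, 750 and 758 in WT, without overlap (log2 fold change 0.94 ± 0.18, limma adjusted p = 0.0124). Among 4 genes of PDGF signalling, 1 rose, the ligand gene Pdgfc, with 274, 383 and 432 in KO and 114, 139 and 199 in WT (log2 fold change 1.27 ± 0.26, limma adjusted p = 0.0156). Of 22 proteases and other inhibitors, the neutrophil collagenase gene Mmp8 rose and the aggrecanase gene Adamts5 fell, again 9.09%. Of 47 other matrix genes, 6.38% were called, below the share of all genes. Among these the adhesive plasma protein gene Vtn and the calcium-binding protein gene Smoc1 rose and the laminin chain gene Lama3 fell. Vtn, made by hepatocytes, had 208157, 237802 and 195603 in KO and 106275, 118460 and 93873 in WT. With the pancreas covariate, Itga2, Itga5, Sdc2, Tgm2, Skil, Pdgfc and Mmp8 were called in KO against WT. The other genes of these lists that were called in the full fit, Vtn among them, were then not called.

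**Figure D5:**
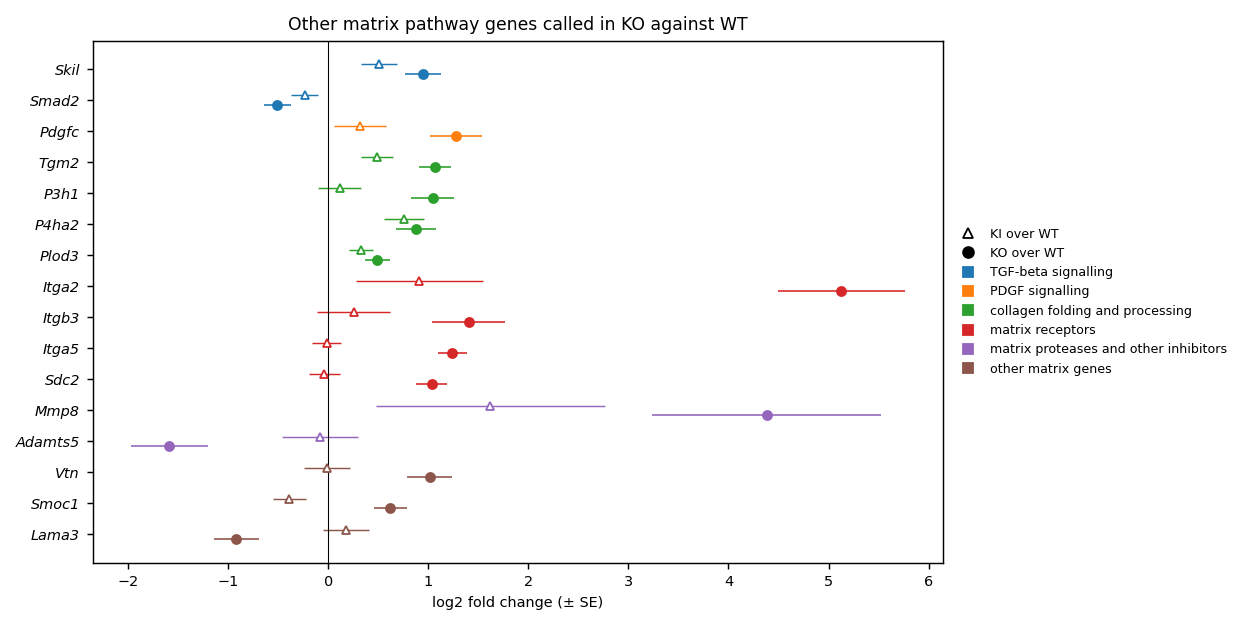
Log2 fold change with its SE (limma, 3 libraries per group) of the 16 genes of the 6 other matrix lists that were called in KO against WT, in KI over WT (open triangles) and KO over WT (filled circles), colored by list. Of the 16 genes, 13 lie to the right of 0 in KO and 3 to the left, and none was called in KI against WT.

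In KI against WT limma called 0 of the 143 genes. Unadjusted limma p was under 0.05 for 14 of them and for 1769 of all 15238 genes. While edgeR called 0 of the 143, DESeq2 called 4, and 163 higher and 209 lower among all genes. In KI against KO 4 were higher and 12 lower, 11.2% against 8.45% of all genes. Itga5 had 720, 854 and 815 normalized counts in KI, at -1.25 ± 0.15 against KO (SE; limma adjusted p = 0.00131), and Itga2, Itgb5, Sdc2 and Itga1 were lower in KI as well. The procollagen C-proteinase gene Bmp1, P3h1 and the collagen glycosyltransferase gene Colgalt1 were lower in KI, as were Pdgfc, Smoc1, Vtn and the type V collagen chain gene Col5a3. The latent TGF-beta binding protein gene Ltbp4, Adamts5, Lama3 and the proteoglycan gene Ogn were higher in KI. Without the 3 libraries with pancreatic transcripts, limma called 0 of the 143 genes in each of the 3 comparisons.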

How the data were processed

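Livers of 3 KI, 3 KO and 3 WT mice were profiled by stranded mRNA sequencing, per the labels' protocols. The authors deposited 1 table of normalized counts per gene, a signal unit; alignment to GRCm38 used TopHat2 and Bowtie2, and counting used featureCounts, per the submitters' processing notes, which give no versions. The deposited values proved to be whole reads divided by a size factor of 0.8921 to 1.1051 per library, and all but 5 values came out whole within 0.0051 units.

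Columns were assigned to samples by animal number. Values were tested as log2(value + 1) in the 15238 genes with a mean of at least 10, with limma 3.58.1 (R 4.3.3), 1 mean per genotype, a variance trend and 6 residual degrees of freedom, and Benjamini-Hochberg adjustment over all these genes. Fold changes on this scale understate those of low genes. The alternatives were constants of 0.5 and 10, no level filter or a mean of at least 50, TMM scaling, edgeR 4.0.16 and DESeq2 1.42.0 on recovered reads, replicate blocks, a pancreas covariate, only the 2 groups compared, and leaving out libraries. Of 19944 genes, 554 had no symbol. Gene positions and exon lengths came from GENCODE M21 and promoters from RefSeq. The procedure was tested on simulated data.

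The 42 genes and all lists were chosen with earlier results of these data known. Named are Snd1, the genes called, the 10 with the smallest p per comparison, up to 4 called genes per pathway list and the leading gene of each marker list described. Any other gene was chosen after its values were seen. A gene of the pathway lists is not reported here and was left out of the list counts. Tables and figures were made with Python 3.11.15, numpy 2.4.6, pandas 2.3.3 and matplotlib 3.10.9.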

Additional observations from a re-analysis of the deposited data

How the results depend on the processing

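In KO against WT the count of called genes was 5 with constants of 0.5 and 10, no filter, TMM scaling, edgeR, the pancreas covariate and only the 2 groups, 4 with a mean of at least 50 and 7 with DESeq2. With the covariate and with only the 2 groups, 4 of the 5 were shared with the full fit: Fn1 was lost in both, and Thbs1 and Col1a1 were gained in turn. Leaving out the 3 libraries that held pancreatic transcripts, so that fewer libraries were fitted, gave 0, and leaving out 1 library gave 2 to 7. In KI against KO, where 4 were called with all libraries, it was 0 without those 3 libraries, 0 with the pancreas covariate, 3 with edgeR, no filter or only the 2 groups, 6 with DESeq2 and 2 to 5 with 1 library left out. The causes were not tested. In KI against WT it was 0 throughout. The log2 fold change of Ecm1 in KI against WT, 0.31 in the full fit, was -0.16 without the 3 libraries, and that of Mmp14 was 0.21 there and -0.26 to 0.02 with 1 library left out, being 0.022 without KI_1. Neither passed in any setting. For the 143 other matrix genes DESeq2 called 25 higher and 7 lower in KO against WT, and 8 and 22 in KI against KO. Of all 15238 genes it called 1208 higher and 1085 lower in KO against WT, and 1009 and 1277 in KI against KO. With the pancreas covariate 7 of the 143 rose in KO against WT, beside 406 of all genes. In KI against KO 1 fell with that covariate, beside 93 of all genes.

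Whether the replicate numbers pair the libraries is not settled. Deviations of same-numbered libraries correlated at -0.136 to 0.568. The highest was between KI_3 and WT_3, which both held pancreatic transcripts, followed by 0.531 between KI_2 and WT_2, which did not. Libraries matched their own number best in 9 of 18 cases, each among the 3 libraries of another group. With the title numbers as a block, 817 of all genes rose and 734 fell in KO against WT, beside 706 and 640 in the full fit. With a replicate block the counts were 5 for KO against WT, 0 for KI against WT and 4 for KI against KO, or 3 for the last with the numbers of the column names, an alternative chosen after seeing the data. In KI against KO the title numbers lost Col6a3 (limma adjusted p = 0.0638) and gained Lrat as higher (limma adjusted p = 0.0110). The column numbers lost Col15a1 (limma adjusted p = 0.0529) and Col6a3 (limma adjusted p = 0.0611) and gained Lrat (limma adjusted p = 0.00512).

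Depth limits Timp1 and Lox, which had under 10 normalized counts on average in WT.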
